A study of Mus musculus with 8 samples.

Results

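The epidermal growth factor (EGF) receptor family with its ligands and feedback genes, together with the hepatocyte growth factor receptor Met and its ligand Hgf, was followed in mouse liver across 8 messenger RNA libraries. Its 10 genes came from a deposited table of 22183 genes: the receptors Egfr, Erbb2 and Erbb3, the ligands Egf, Tgfa and Hbegf, the feedback inhibitors Errfi1 and Lrig1, and Met and Hgf. They were chosen by symbol with their knockout against control values in these same libraries in view, so their fold changes and adjusted p-values are given as a description of where they stand among all genes. The 4 knockout livers (Stat3flox/flox;Alb-Cre) carried 2 floxed copies of Stat3, which encodes a transcription factor downstream of cytokine receptors. They also carried Alb-Cre, which expresses Cre from the albumin promoter and so recombines floxed genes in hepatocytes. The 4 control livers (Stat3flox/flox) carried the same floxed gene without Cre. Every mouse of both groups had been gavaged once a day with alcohol (20%, 15 µL per g) over 2 weeks, so genotype under alcohol is the single contrast. The labels give no age or sex and do not say whether the numbered samples are separate animals, so each p-value rests on the spread between these samples, part of which may be technical. Whole liver was used, in which fewer cells of a type and less RNA per cell cannot be told apart. Cells in which Alb-Cre was never active keep Stat3.

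EGF receptor and its relatives are membrane tyrosine kinases that dimerise when a ligand binds and pass the signal through RAS and ERK. ERBB2 binds no known ligand, ERBB3 has a weak kinase and signals through its partners, and hepatocytes of adult rodents are known for abundant EGF receptor and ERBB3. Ligands are made as membrane precursors and released by sheddases, while MET responds to hepatocyte growth factor, made in liver mainly by stellate cells. Both receptors are best known in this organ for their part in regeneration.

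The libraries held 15998391 to 19474696 estimated counts, and 11692 genes passed the filter on low counts. Stat3, the targeted gene, was at 27.3, 25.1, 29.7 and 28.4 CPM (counts divided by the TMM-scaled library size, expressed as CPM) in knockouts 1 to 4, against 75.1, 72.9, 46.8 and 72.1 CPM in controls 1 to 4. All knockout values lay below all control values (exact two-sided permutation p = 0.0286, the smallest that 70 assignments allow), and Stat3 fell in knockout, with a log2 fold change of −1.27 (SE 0.17, adjusted p = 0.0469, edgeR's quasi-likelihood test). It passed the threshold without knockout 1 (0.0298) or control 3 (0.00108), and its adjusted p was 0.0564 to 0.227 without any 1 of the other 6 libraries. Gene counts do not separate the floxed exons from the rest of the transcript. All 8 hepatocyte markers were detected, with a summed level of 109462 to 160406 CPM in knockouts and 119408 to 343927 CPM in controls. Alb made up most of the sum, with 134877 CPM in knockout 1 and 320156 CPM in control 2. Of the 8 markers, 4 had a fold change above 0 and 4 below, at a median log2 value of 0.10, and none was called. Y-linked reads were present in knockouts 2, 3 and 4 and in controls 3 and 4, and absent or nearly so (at most 5 counts) in knockout 1 and controls 1 and 2, so neither group can consist of repeats of 1 animal. Where present they were uneven, at 43.8 to 56.2 CPM in the 3 knockouts, 99.6 CPM in control 3 and 14.7 CPM in control 4. Mitochondrially encoded genes took 19.7 to 22.2% of counts in knockouts and 12.9 to 20.7% in controls. Albumin took 27.3% of the counts of control 2, against 7.46 to 13.8% in the other 7 libraries.

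Of the receptors, Egfr and Erbb3 were lower in all 4 knockouts than in any control. Egfr (ENSMUSG00000020122, GRCm38 chromosome 11, 16752203 to 16918158, plus strand) was at 53.7, 121, 116 and 118 CPM in knockouts 1 to 4, against 257, 313, 311 and 264 CPM in controls 1 to 4. Every knockout library lay below every control library, and knockout 1 held less than any other library. The means were 102 ± 32.5 CPM in knockout and 286 ± 29.8 CPM in control (SD, n = 4 each), a log2 fold change of −1.49 (SE 0.25), or 2.80-fold lower in knockout. In the fit across all genes its adjusted p was 0.0583 (edgeR's quasi-likelihood test), the 17th smallest p, and it passed 0.05 in DESeq2 (adjusted p = 2.45e-06) but not in limma-voom (0.0853).

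Knockout 1 and control 3 each bear on that call. Without knockout 1 the fold change of Egfr was −1.27 (adjusted p = 0.0170), and without control 3 it was −1.44 (adjusted p = 0.0219). Leaving out any 1 of the other 6 libraries gave −1.57 to −1.44 with adjusted p between 0.110 and 0.248.

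The stretch before the Egfr start is shown because this is the member whose groups stood farthest apart, beside that of Errfi1, the most abundant member, whose groups overlapped. Both are RefSeq sequences of GRCm38.p6, the 250 bases before an annotated start, read 5′ to 3′ on the plus strand at chr11:16751953-16752202 for Egfr and chr4:150854820-150855069 for Errfi1, the second of 2 starts. Capitals mark GGGCGG or its reverse complement CCGCCC, the core of a GC box.
Egfr: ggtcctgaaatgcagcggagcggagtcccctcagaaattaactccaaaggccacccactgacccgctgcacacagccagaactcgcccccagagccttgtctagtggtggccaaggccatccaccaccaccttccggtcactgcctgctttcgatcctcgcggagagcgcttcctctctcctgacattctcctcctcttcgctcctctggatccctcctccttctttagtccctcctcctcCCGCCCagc
Errfi1: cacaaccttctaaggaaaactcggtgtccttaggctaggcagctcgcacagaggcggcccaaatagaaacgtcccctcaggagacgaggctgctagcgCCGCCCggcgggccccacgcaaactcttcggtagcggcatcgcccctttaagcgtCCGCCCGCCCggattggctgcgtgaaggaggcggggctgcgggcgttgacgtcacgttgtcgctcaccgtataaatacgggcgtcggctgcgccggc
The Egfr window held 1 GC box and no TATAAA on either strand, at 60.8% G and C, while the Errfi1 window held 3 GC boxes (2 of them overlapping) and 1 TATAAA at 64.8% G and C. The window before the other Errfi1 start (chr4:150853546-150853795, not printed) held neither motif, at 38.0% G and C. The motif TTCNNNGAA, the general form of a STAT element and its own reverse complement, was in none of these, nor in any of the 11 windows available for 8 of the 10 genes, nor was its narrower form TTCCNGGAA. Of all 32851 windows of this length, 7.02% held TTCNNNGAA, 0.913% TTCCNGGAA, 32.7% GGGCGG and 12.4% TATAAA. Absence of letters from a short window says nothing about binding elsewhere.

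Erbb3 (ENSMUSG00000018166, chromosome 10, 128567523 to 128589652, minus strand), the partner receptor with a weak kinase, was at 66.8, 43.3, 46.0 and 40.6 CPM in knockouts 1 to 4 and at 80.5, 68.3, 75.9 and 81.1 CPM in controls 1 to 4. Its groups did not overlap either, but here knockout 1 was the highest knockout, just under control 2, the lowest control. The log2 fold change was −0.64 (SE 0.18, adjusted p = 0.203). Without knockout 1 it was −0.82 (adjusted p = 0.0460, edgeR's quasi-likelihood test), and the adjusted p was 0.107 to 0.513 without any 1 of the other 7 libraries.

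Erbb2 (ENSMUSG00000062312, chromosome 11, 98412470 to 98437716), the receptor with no known ligand, was near the lower end of what these libraries could show. It had 9, 6, 8 and 11 counts in knockouts 1 to 4 and 11, 7, 5 and 7 counts in controls 1 to 4, and did not pass the filter. A difference in Erbb2 was not detectable at this depth. Erbb4, the fourth receptor, fixed as part of a wider list, was at 2.38 ± 0.70 CPM in knockout and 1.397 ± 0.70 CPM in control (log2 fold change 0.75, SE 0.44, adjusted p = 0.460).

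**Figure D1:**
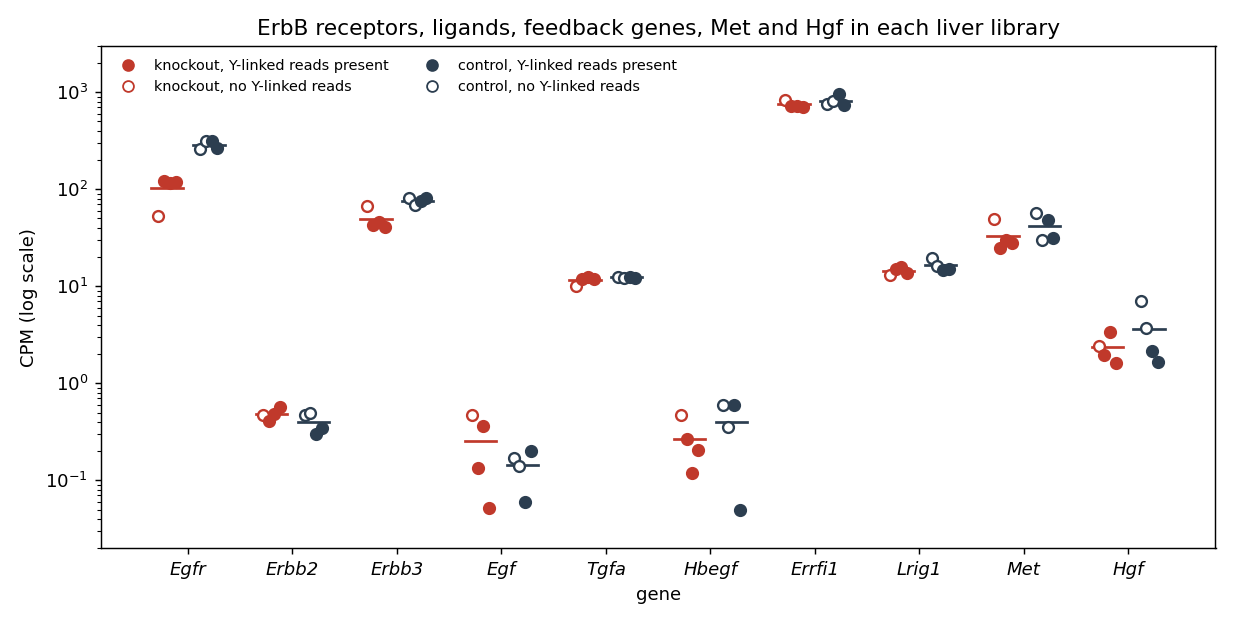
CPM of the 10 genes in each library on a log axis, with knockout to the left of control for each gene, short lines for group means and open circles for libraries without Y-linked reads. Egfr and Erbb3 are the genes whose groups do not overlap, with knockout 1 at 53.7 CPM the lowest for Egfr and at 66.8 CPM the highest knockout for Erbb3.

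Of the 10 genes, 7 passed the filter on low counts, and none of these was called across all genes in edgeR's quasi-likelihood test, beside 0.0342% of the 11692 genes tested (4 fell and 0 rose, or 7 and 4 with upper-quartile scaling). At an unadjusted p under 0.05 there were 2 of the 7, Egfr and Erbb3, both lower, where 14.0% of all tested genes were past that value in either direction and 8.47% were lower. DESeq2 called 1 of the 7, Egfr, beside 2.31% of all genes it tested (269 genes), and limma-voom called 0 of the 7 and 0% of all genes. Groups did not overlap in those 2 genes, both with all knockouts below, and in 7.08% of all tested genes, 3.86% with all knockouts below and 3.22% with all knockouts above. All 7 fold changes were below 0, at a median of −0.34 beside −0.03 over all tested genes. The genes were chosen with this contrast known, so nothing is read from these shares.

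**Figure D2:**
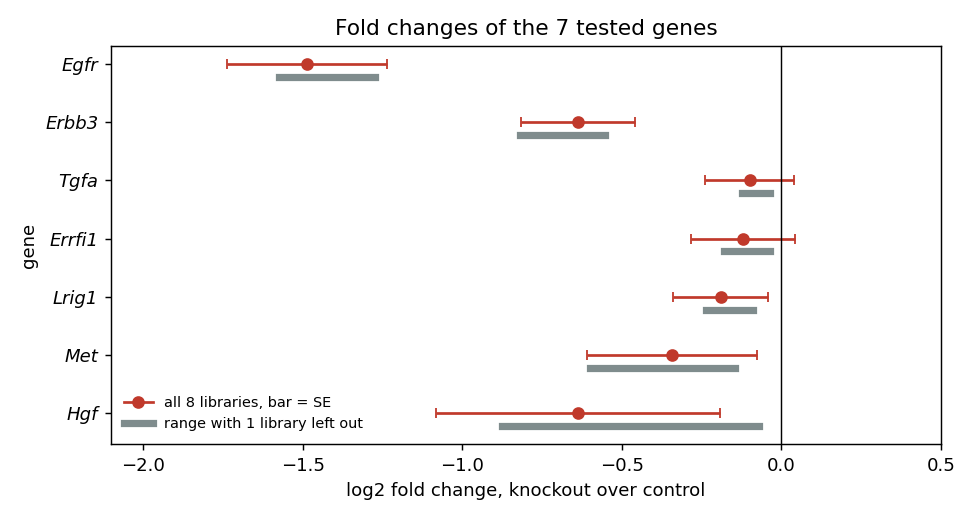
Log2 fold change of knockout over control for the 7 tested genes (points, bars = SE) with the range of values when 1 library is left out (grey). Egfr at −1.49 and Erbb3 at −0.64 stay below −0.5 with any single library left out, whereas the range of Hgf reaches −0.07.

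Egfr and Erbb3 also stood in different proportion. Per kilobase of merged exons, Egfr was 0.427, 1.48, 1.34 and 1.55 times Erbb3 in knockouts 1 to 4 and 1.70, 2.43, 2.18 and 1.73 times Erbb3 in controls 1 to 4. Egfr was thus the more abundant of the pair in 3 knockout and all 4 control livers, and the less abundant in knockout 1. Its share of the summed level of Egfr, Erbb2 and Erbb3 was 51.6% ± 14.7 in knockout and 66.3% ± 3.90 in control (SD, n = 4 each). Knockout 1 stood at 29.7%, against 57.0 to 60.4% in the other knockouts. These ratios are taken within a library and do not depend on its scaling.

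Among the ligands, Tgfa was the only one of the 3 to pass the filter. Tgfa (ENSMUSG00000029999, chromosome 6, 86195223 to 86275719), which encodes transforming growth factor alpha, was at 9.98, 11.96, 12.4 and 11.8 CPM in knockouts 1 to 4 and 12.5, 12.1, 12.6 and 12.2 CPM in controls 1 to 4. The values overlapped, and 7 of the 8 libraries lay between 11.8 and 12.6 CPM, with knockout 1 below them. The log2 fold change was −0.10 (SE 0.14, adjusted p = 0.780, edgeR's quasi-likelihood test).

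Egf (ENSMUSG00000028017, chromosome 3, 129677565 to 129755316), the founding ligand of the family, made mainly outside the liver, had 9, 2, 6 and 1 counts in knockouts 1 to 4 and 4, 2, 1 and 4 counts in controls 1 to 4. Hbegf (ENSMUSG00000024486, chromosome 18, 36504927 to 36515805), the heparin-binding ligand, had 9, 4, 2 and 4 counts in knockouts and 14, 5, 10 and 1 counts in controls, in the same order. Neither passed the filter, and both groups of each ranged over several-fold on counts this low. Per kilobase, Tgfa made up 95.7% ± 2.71 of the summed level of the 3 ligands in knockout and 95.3% ± 2.39 in control (SD, n = 4 each).

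The values of both feedback inhibitors overlapped between genotypes. Errfi1 (ENSMUSG00000028967, chromosome 4, 150853919 to 150868892), whose product MIG6 binds the kinase domain of activated EGF receptor and blocks it, was at 841, 721, 723 and 707 CPM in knockouts 1 to 4 and 757, 812, 948 and 737 CPM in controls 1 to 4. The groups overlapped, and knockout 1 stood above the other 3 knockouts, which lay within 707 and 723 CPM. The log2 fold change was −0.12 (SE 0.16, adjusted p = 0.769), and it was 0.00 without controls 2 and 3 together. Lrig1 (ENSMUSG00000030029, chromosome 6, 94604529 to 94700158), a membrane protein that promotes degradation of ErbB receptors, was at 12.9, 15.1, 15.8 and 13.6 CPM in knockouts and 19.4, 16.4, 14.8 and 15.0 CPM in controls, in the same order. These groups overlapped too (log2 fold change −0.19, SE 0.15, adjusted p = 0.582), with control 1 the highest library. An exon of Lrig1 overlaps Slc25a26 on the other strand by 144 bases, and the use of strand in counting is not given in the sources used here. Other members share exon bases with annotated genes too. Egf shares 607 and 500 bases, Tgfa 118 and Erbb2 9 with genes on the other strand. Hgf shares 484 bases with a gene on its own strand.

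Errfi1 transcripts outnumbered those of Egfr per length in every library. Per kilobase of merged exons, Errfi1 was 49.5, 18.8, 19.7 and 18.9 times Egfr in knockouts 1 to 4 and 9.29, 8.20, 9.63 and 8.83 times Egfr in controls 1 to 4. Every knockout ratio was above every control ratio, with the 4 control ratios and 3 of the knockout ratios each within a narrow range and knockout 1 far above. Egfr enters this ratio, so it is a description of the same difference.

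**Figure D3:**
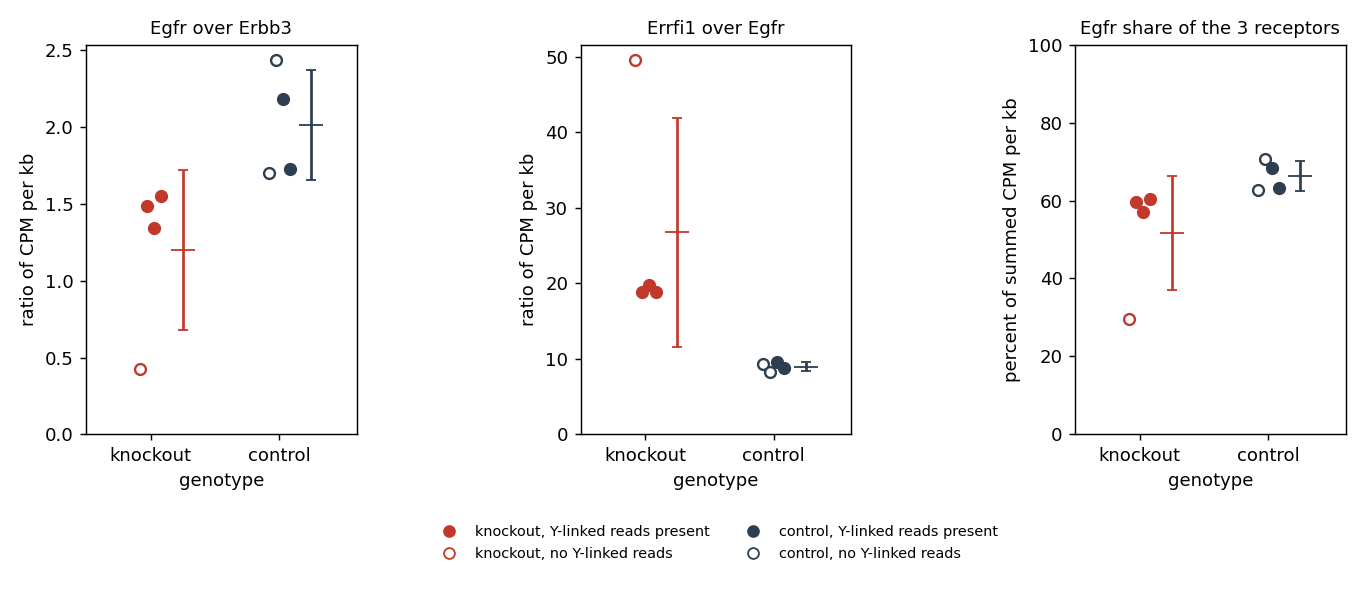
Ratios of CPM per kb within each library (Egfr over Erbb3, Errfi1 over Egfr, and Egfr as a percent of Egfr, Erbb2 and Erbb3), with mean and SD beside the points of each genotype and open circles for libraries without Y-linked reads. Errfi1 over Egfr is 18.8 to 49.5 in the 4 knockouts and 8.20 to 9.63 in the 4 controls.

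The values of Met and Hgf varied widely within a genotype and overlapped between genotypes. Met (ENSMUSG00000009376, chromosome 6, 17463800 to 17573980), the receptor of hepatocyte growth factor, was at 49.1, 25.0, 29.7 and 27.8 CPM in knockouts 1 to 4 and 57.0, 29.8, 48.7 and 31.4 CPM in controls 1 to 4. The groups overlapped, and libraries near 50 CPM or above occurred in both (log2 fold change −0.34, SE 0.27, adjusted p = 0.581, edgeR's quasi-likelihood test). It was −0.60 without knockout 1 and −0.14 without control 1. Hgf (ENSMUSG00000028864, chromosome 5, 16553495 to 16620152), the ligand, was at 2.43, 1.96, 3.37 and 1.61 CPM in knockouts 1 to 4, on 29 to 56 counts, and at 7.01, 3.69, 2.15 and 1.65 CPM in controls 1 to 4, on 33 to 163 counts. Control 1 was the highest, and the other 3 controls lay close to the range of the knockouts. The log2 fold change was −0.64 (SE 0.44, adjusted p = 0.535), and it was −0.07 without control 1. Of 10 stellate cell markers, 8 had a fold change above 0 and none was called, at a median of 0.33. In Lrat, Des, Reln and Ecm1 all knockouts lay above all controls, where 3.22% of all tested genes did, and the groups of the other markers overlapped. The 10 markers summed to 332 to 499 CPM in knockouts and 237 to 390 CPM in controls, with 277 CPM in control 1. Dcn, whose groups overlapped, made up 270 CPM of the sum in knockout 1. No marker was at 0 in all libraries. The part of these markers in the values of Hgf was not tested.

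Ordered by mean level per kilobase of merged exons, Errfi1 came first in both genotypes, at 209 ± 17.4 CPM per kb in knockout and 227 ± 26.5 CPM per kb in control (SD, n = 4 each). Egfr was second at 9.03 ± 2.87 CPM per kb in knockout and 25.3 ± 2.63 CPM per kb in control. Erbb3 followed at 8.18 ± 1.99 and 12.7 ± 0.983, then Met at 4.29 ± 1.43 and 5.43 ± 1.73, Lrig1 at 2.58 ± 0.237 and 2.94 ± 0.381, Tgfa at 1.78 ± 0.163 and 1.90 ± 0.0376, and Hgf at 0.326 ± 0.106 and 0.504 ± 0.337 CPM per kb, with knockout given before control throughout. The level of Egfr overlapped that of its neighbour Erbb3 in knockout livers (4.74 to 10.7 against 6.76 to 11.1 CPM per kb) but not in control livers (22.7 to 27.6 against 11.4 to 13.5 CPM per kb). Erbb2, Hbegf and Egf were last, all under 0.1 CPM per kb on average, and Erbb2 and Hbegf overlapped in both genotypes. The order was the same by the longest transcript, though Lrig1 and Tgfa then overlapped in knockout livers.

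Presence of Y-linked reads was unequal between the genotypes, so the fold changes were also read within each class of library. Among the 3 knockouts and 2 controls with Y-linked reads, the log2 fold change was −1.28 for Egfr (adjusted p = 0.00769) and −0.86 for Erbb3 (adjusted p = 0.0208, edgeR's quasi-likelihood test on those 5 libraries), beside 1.05% of all genes called there. Knockout 1 against controls 1 and 2, the libraries without such reads, gave log2 ratios of mean CPM of −2.41 for Egfr and −0.15 for Erbb3, with 1 library on the knockout side and so no test. Egfr was lower in knockout within both classes, and a model with a term for Y-linked reads gave it an adjusted p of 0.0245. Errfi1, Met and Hgf differed in sign between the classes, at −0.23, −0.54 and 0.29 with Y-linked reads and 0.10, 0.18 and −1.14 without them. Whether the fold changes differ between the classes was not tested.

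Summed macrophage markers were lower in every knockout than in 3 of the 4 controls. All 10 Kupffer cell and macrophage markers had a fold change below 0 (median −1.75, none called), with a summed level of 70.5 to 111 CPM in knockouts, 318 to 563 CPM in controls 1, 2 and 4, and 39.5 CPM in control 3, and no marker was at 0 in all libraries. Cholangiocyte markers summed to 151 CPM in control 3 and 35.5 to 57.2 CPM in the other 7 libraries, and Spp1 alone made up 143 CPM of the sum in control 3. The part of these markers in the values of the 10 genes was not tested.

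The wider pathway was read from 8 lists with 107 genes, of which 89 passed the filter. None was called across all genes (edgeR's quasi-likelihood test), beside 0.0342% of all tested genes, with 12 at an unadjusted p under 0.05 (10 lower, 2 higher) where 14.0% of all tested genes were past that value and 8.47% were lower. DESeq2 called 1 of them, beside 2.31% of all genes, and limma-voom 0. Their median log2 fold change was −0.12, beside −0.03 over all tested genes. Of 22 genes listed for receptor endocytosis and ubiquitin control, tyrosine phosphatases among them, 18 were below 0, at a median of −0.31. In 4 of the 22 all knockouts lay below all controls, where 3.86% of all tested genes did. These were the only ones of the 89 whose groups did not overlap, against 7.08% of all tested genes in either direction. Eps15, an endocytic adaptor phosphorylated by EGF receptor, was at 19.4, 17.97, 21.1 and 18.7 CPM in knockouts 1 to 4 and 31.5, 36.4, 32.0 and 22.1 CPM in controls 1 to 4. Its groups did not overlap, and it is the gene DESeq2 called (log2 fold change −0.66, SE 0.16, adjusted p = 0.166 in edgeR). Ptprk, a receptor phosphatase, was at −0.37 (SE 0.13, adjusted p = 0.274), and Cd2ap, an adaptor that binds CBL ubiquitin ligases, at −0.49 (SE 0.18, adjusted p = 0.272).

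The list of sheddases, which release the ligands, also held proprotein convertases and inactive rhomboid proteins, which are not sheddases. This mixed list had a median log2 fold change of −0.26 over 10 tested genes, 7 of them below 0. Adam17, the main sheddase of Tgfa and Hbegf, was at −0.53 (SE 0.21, adjusted p = 0.305) and passed without control 3 (−0.69, adjusted p = 0.0499, edgeR's quasi-likelihood test). Of all single libraries left out, control 3 was the one whose removal gave the most calls over all genes. Adam10 was at −0.39 (SE 0.18, adjusted p = 0.356) and Adam9 at −0.29 (SE 0.19). Of the 9 receptors and ligands outside the 10 genes, 3 were tested: Btc, betacellulin, at −0.81 (SE 0.35), Nrg4, a neuregulin, at 0.61 (SE 0.31), and Erbb4, given above. Nrg4 passed among libraries with Y-linked reads alone (1.35, adjusted p = 0.0371, edgeR's quasi-likelihood test), where 1.05% of all genes were called. Without such reads it was lower in knockout, at 4.28 CPM in knockout 1 against 6.07 and 5.11 CPM in controls 1 and 2. Areg and Ereg, for amphiregulin and epiregulin, did not pass the filter, with 2 and 37 counts over the 4 knockouts and 5 and 18 counts over the 4 controls.

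Downstream of the receptors, the 14 genes of the cascade through RAS and ERK had a median of 0.06, with 8 above 0 and 6 below. Hras, a RAS protein, was at 0.52 (SE 0.20, adjusted p = 0.295, edgeR's quasi-likelihood test), with 15.5 CPM in knockout 1 and 25.7 to 27.4 CPM in the other knockouts against 13.3 to 18.4 CPM in controls. Rps6ka3, a kinase activated by ERK, was at −0.75 (SE 0.25). The 15 adaptors and enzymes at the receptor had a median of −0.11, with Grb7 at 0.47 (SE 0.21), Pik3ca at −0.31 (SE 0.14) and Sos1 at −0.33 (SE 0.20).

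Genes induced through ERK went in both directions. Of 8 tested feedback genes 5 were above 0 (median 0.16): Spry4, a Sprouty inhibitor of RAS signalling, was at 0.72 (SE 0.32, adjusted p = 0.351, edgeR's quasi-likelihood test), Spred1, of a related family, at −0.44 (SE 0.20), and Dusp5, a nuclear ERK phosphatase, at −1.85 (SE 0.79) on 0.275 ± 0.201 CPM in knockout and 1.06 ± 1.16 CPM in control. Of 9 tested early and growth genes 8 were below 0 (median −0.19), with Myc at −0.85 (SE 0.41), Phlda1 at −0.56 (SE 0.37) and Fosl2 at −0.51 (SE 0.31). Phlda1 passed among libraries with Y-linked reads alone (−1.28, adjusted p = 0.0478, edgeR's quasi-likelihood test), where 1.05% of all genes were called. Without such reads it was higher in knockout, at 9.51 CPM in knockout 1 against 7.87 and 3.83 CPM in controls 1 and 2. The 8 tested genes of Hgf activation and the related receptor lay at a median of −0.02. Spint2, an inhibitor of the activating proteases, was at 0.42 (SE 0.28), Plat at −0.25 (SE 0.50) and Mst1 at −0.06 (SE 0.15).

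The deposited table itself assigns 78 genes to the KEGG ErbB signaling pathway, 6 of them among the 10. Of the 59 that were tested, 0 rose and 0 fell across all genes (edgeR's quasi-likelihood test), and 8 were at an unadjusted p under 0.05, 7 lower and 1 higher, which is 13.6% beside 14.0% of all tested genes. Egfr had both the smallest p and the lowest fold change of the 59, and Erbb3 the fourth smallest p. Egfr and Erbb3 were chosen with these values known, so nothing is read from their ranks. The next after Egfr was Pak1, a p21-activated kinase named here after its value was seen, at −1.42 (SE 0.35, adjusted p = 0.166).

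**Figure D4:**
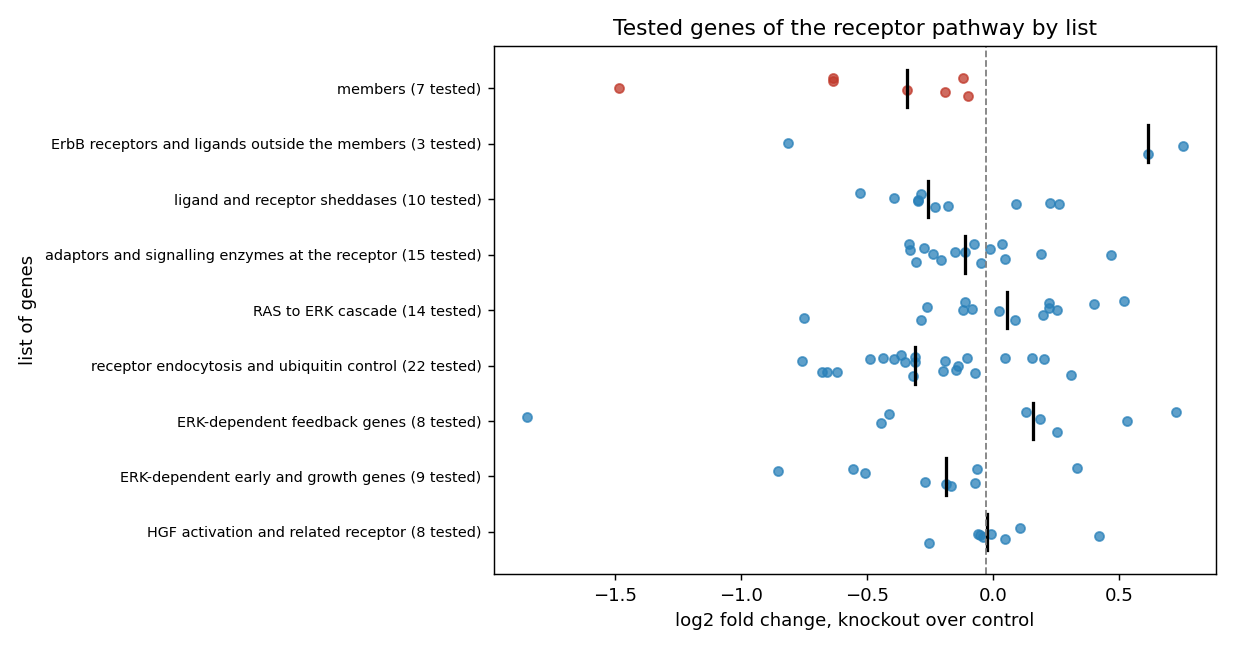
Log2 fold change of knockout over control for each tested gene of the 7 tested members (red) and of 8 lists of the wider pathway (blue), with black ticks for list medians and a dashed line for the median of all tested genes at −0.03. Egfr at −1.49 lies apart from the other members, and the lists spread to both sides of the line, from −1.85 for Dusp5 to 0.75 for Erbb4.

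Across the 8 libraries, the genes closest to Egfr were found by the root-mean-square difference of centred log2 CPM among 9634 genes with a mean of at least 1 on that scale. They were C8a, a chain of complement component 8 (0.335), Slc41a2, a magnesium transporter (0.364), Lrg1, a secreted leucine-rich glycoprotein (0.397), Orm1, an acute-phase glycoprotein whose close paralogs make its count uncertain (0.404), and Uap1l1 (0.429). The median difference over all genes was 0.899, and Egfr itself spread by 0.856 around its mean. C8a was at 63.6, 275, 235 and 258 CPM in knockouts 1 to 4 and 453, 410, 701 and 459 CPM in controls 1 to 4, so knockout 1 was lowest here too. Slc41a2 was at 3.49, 11.6, 11.4 and 11.3 CPM in knockouts and 28.4, 49.0, 25.3 and 35.9 CPM in controls, in the same order. All 5 genes were lowest in knockout 1, and in 4 of them, all but Lrg1, the groups did not overlap (7.08% of all tested genes). The 5 were picked for closeness to the profile of Egfr, so these shared features follow from the choice. Among the tested members the closest to Egfr was Erbb3 at 0.72, while Lrig1 and Tgfa lay nearest to each other, at 0.12.

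**Figure D5:**
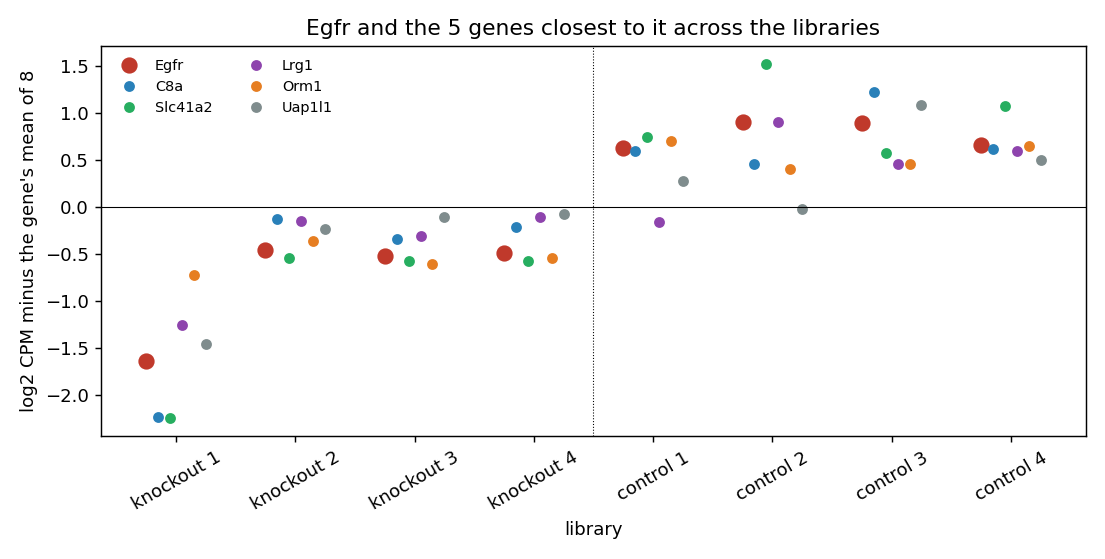
Log2 CPM minus each gene's mean of 8 libraries for Egfr (large red points) and the 5 genes closest to it, knockouts to the left of controls. All 6 genes are lowest in knockout 1, and the next 3 libraries, knockouts 2 to 4, lie below 0 for each of them. The 5 genes were picked for closeness to this profile of Egfr.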

How the data were processed

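Livers were frozen, RNA was extracted with Trizol and libraries were run on a HiSeq X10, per the labels' protocols. The submitters' processing notes name CASAVA 1.8, Bowtie, TopHat2 and GRCm38. The authors deposited 1 table of an estimated count per gene and sample, not normalized, of which 94.2% were whole. For the counting program, annotation, strand and filters, the sources used here give nothing. Counts were rounded, filtered by filterByExpr, scaled by TMM and compared with glmQLFit and glmQLFTest (edgeR 4.0.16 in R 4.3.3, no covariate) with Benjamini-Hochberg adjustment over 11692 genes at 0.05. Standard errors come from the fold change and F. CPM uses the scaled library size. DESeq2 1.42.0, limma-voom (limma 3.58.1), other scalings and filters, robust dispersions, Y-linked reads (Ddx3y, Eif2s3y, Kdm5d and Uty summing to over 10 counts), the replicate number as a block and left-out libraries were alternatives. The ratio within libraries lacking Y-linked reads, the KEGG list and the GC box and TATAAA searches were added after seeing the data. On simulated data for this comparison (5 runs, 11567 genes tested), the fit found 31.8% of genes given a log2 change of 1 and 91.4% of genes given 2, and 39 of 631 calls were false. The simulation drew each gene independently, without differences shared across genes by a library, so these rates may not carry over to these libraries.

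The members and lists were chosen with earlier results of these data known. Genes named were all 10 members, Stat3, the 3 members of each list with the smallest p (none being called; 1 is not reported here) and the 5 genes closest to Egfr by centred log2 CPM (prior count 2); Pak1, Areg and Ereg were named after their values were seen. Coordinates and lengths come from GENCODE M21 (GRCm38) and promoters from RefSeq (GRCm38.p6), which held windows for 8 of the 10 genes. Errors cover the spread of 4 samples per group.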

Additional observations from a re-analysis of the deposited data

Results flagged for a closer look

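Samples that stood apart within a group of 4 were sought by Dixon's test among 32 genes, the 7 tested members, Stat3 and 24 named pathway genes, which makes 64 groups. It marked 5, and chance marks about 1 in 20. Egfr in knockout 1 was at 53.7 CPM, below 116 to 121 CPM in the other knockouts. Errfi1 in knockout 1 was at 841 CPM, above 707 to 723 CPM in the other knockouts. Hras in knockout 1 was at 15.5 CPM, below 25.7 to 27.4 CPM in the other knockouts. Stat3 in control 3 was at 46.8 CPM, below 72.1 to 75.1 CPM in the other controls. Erbb4 in control 2 was at 0.355 CPM, below 1.65 to 1.91 CPM in the other controls. Knockout 1 was the knockout library without Y-linked reads, and the part of this in its values was not tested.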

How the results depend on the processing

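The fold changes of Egfr, Erbb3, Lrig1 and Tgfa were below 0 under every alternative run, at −2.41 to −1.27 for Egfr and −0.86 to −0.15 for Erbb3. Others reversed: Errfi1 to 0.0049 without controls 2 and 3 and 0.10 in libraries lacking Y-linked reads, Met to 0.18 in the same libraries, Hgf to 0.29 with Y-linked reads alone, and, without control 4, Plat (−0.55 to 0.16 with 1 library left out) and Mst1 (−0.16 to 0.017). Calls over all genes, 4 in the fit reported, were 11 with upper-quartile scaling, 1 without scaling, 8 with a filter of 1 CPM in 4 libraries, 62 with no filter, 269 in DESeq2, 0 in limma-voom (1639 in edgeR at an unadjusted p under 0.05), 187 without controls 2 and 3, 27 with a Y-linked term, 125 with Y-linked reads alone, 79 at an adjusted p under 0.1, 0 under 0.01 and 0 to 324 with 1 library left out (324 without control 3, 67 without knockout 1). Of the members, 1 was called with no filter, 1 in DESeq2 (beside 2.31% of all genes) and 1 with the Y-linked term. With Y-linked reads alone 2 members were called (beside 1.05% of all genes), and 0 to 2 with 1 library left out. Of the wider pathway, 1 gene was called in DESeq2 (2.31% of all genes), 2 with Y-linked reads alone (1.05%) and 0 to 1 with 1 library left out. Stat3 missed 0.05 without scaling (−1.34) and in limma-voom (−1.25), and lay at −1.41 to −1.20 with 1 library left out, passing only without knockout 1 or control 3. Groups did not overlap in 3085 genes without controls 2 and 3. With fewer controls, groups separate more easily, so this count cannot be set beside that for all 8 libraries. The causes were not tested, beyond fewer samples or genes where the alternative has them. With the replicate number as a block, 0 genes were called and Stat3 was at −1.25 (adjusted p = 0.107, edgeR). Same-numbered samples correlated at 0.32, −0.25, 0.09 and 0.18 in their deviations, and 2 of 4 numbers matched best with their own. The labels do not state a pairing, and these values cannot settle whether same-numbered samples share more than a number. Depth limits Erbb2, Egf and Hbegf, with at most 14 counts in a library.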
